A study of Homo sapiens with 8 samples.

Results

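Transcript levels of 78 nuclear genes for subunits of the oxidative phosphorylation complexes were compared between human cholangiocarcinoma cells with and without a knockdown of YAP1. The genes were chosen by symbol (NDUFA, NDUFB, NDUFC, NDUFS, NDUFV, SDHA to SDHD, UQCR, CYC1, COX4 to COX8 and ATP5), without pseudogenes and NDUFAF assembly factors. They are 78 of the 19775 genes measured by a probe set with 1 symbol, and comprise 33 genes of complex I, 3 of complex II, 7 of complex III, 17 of complex IV and 18 of complex V. The antisense and divergent transcripts NDUFB2-AS1, NDUFV1-DT and NDUFV2-AS1 share the symbols but encode no subunit and were left out. NDUFC2, NDUFS5, NDUFS8, UQCRH and UQCRHL were found only on probe sets that list several genes and were not analysed here.

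HuCCT1, a cell line established from a human bile duct carcinoma, carried either the vector labelled YAP shRNA 1 (4 arrays) or a control shRNA (4 arrays). All 8 samples received doxycycline at 100 ng/ml for 3 days before seeding to induce the shRNA. Doxycycline belongs to the tetracyclines, which are known to inhibit protein synthesis on mitochondrial ribosomes, and the design holds no sample without it. Results therefore rest on 1 cell line and 1 YAP shRNA, and the labels do not say whether the lines were clonal or the replicates grown apart. The p-values therefore reflect variation among these arrays, and that variation may be technical.

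Oxidative phosphorylation couples the oxidation of NADH and succinate to ATP synthesis in the inner mitochondrial membrane. Electrons pass through complexes I and II to ubiquinone, then through complex III to cytochrome c and through complex IV to oxygen, and the proton gradient built by complexes I, III and IV drives the ATP synthase, complex V. Most subunits are encoded in the nucleus, while a core set of complexes I, III, IV and V is encoded by mitochondrial DNA. Nuclear subunit genes are known to share regulators such as the transcription factors NRF1, GABPA and YY1 and coactivators of the PGC-1 family.

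YAP1, the targeted gene and the transcriptional coactivator of the Hippo pathway, stood at 10.40, 10.55, 10.51 and 10.54 on the log2 scale with the YAP shRNA, against 12.59, 12.61, 12.77 and 12.60 with the control shRNA. It fell 4.41-fold (limma adjusted p = 6.15e-07), the direction of a knockdown as labelled, although the series title speaks of overexpression. All 9 measured epithelial and biliary markers lay above the median gene level of 7.44, among them KRT7 and KRT19. Of 17 measured leukocyte, fibroblast and endothelial markers, COL1A1 alone lay above it, at 8.48 with the YAP shRNA and 7.95 with the control shRNA. Some markers changed (limma): 4 of the 9 epithelial ones rose, and COL1A1, LYZ and CD14 rose. PTPRC, the common leukocyte marker, fell, at 3.74 with the YAP shRNA and 3.96 with the control shRNA. The shares called were 44.4% of the 9 epithelial and biliary markers and 50% of the 6 leukocyte markers. They were 16.7% of the 6 fibroblast markers and 0% of the 5 endothelial markers. Beside these, 16.7% of all genes and 26.6% of genes above the median level were called. PTPRC lost its call in 11 of 17 alternative settings and stood at -0.050 with probe sets averaged. The part of these marker changes in the results was not tested. Across all genes, control shRNA replicate 4 correlated less with its group (mean r = 0.9967) than the other 3 control arrays did (0.9978 to 0.9980), and counts are therefore also given without it.

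Among the 78 oxidative phosphorylation subunit genes, UQCRC2 fell, CYC1 and ATP5F1D rose, and the other 75 did not pass the test (limma, adjusted p under 0.05 by Benjamini-Hochberg across all 19775 genes). The log2 fold change was smaller than 0.1 either way in 68 of the 78, or 87.2%, beside 53.1% of all genes. Above a log2 level of 11 it was 59 of 67 subunit genes, or 88.1%, beside 63.0% of all genes there. These 2 sets were not matched further, with median levels of 12.77 for the subunit genes and 11.97 for all genes. The part of level in the small changes was not tested. In bulk RNA, fewer cells with a transcript and less transcript per cell cannot be told apart. The 3 called genes are 3.85% of the subunit genes, beside 16.7% called among all genes tested. The background was 26.6% among the 9887 genes above the median level and 20.8% among the 3809 genes above a log2 level of 11, where 67 of the 78 subunit genes lay. Of the 71 subunit genes above the median level 4.23% were called, and of the 67 above a level of 11, 4.48%. In both of these sets 2 rose and 1 fell. Rises alone were 2.56% of the subunit genes, beside 9.49% of all genes, 15.2% of those above the median level and 9.74% of those above a level of 11. Falls were 1.28%, beside 7.17%, 11.4% and 11% of the same sets. Without control shRNA replicate 4, 3 subunit genes rose and 2 fell, beside 19.6% called among all genes.

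**Figure D1:**
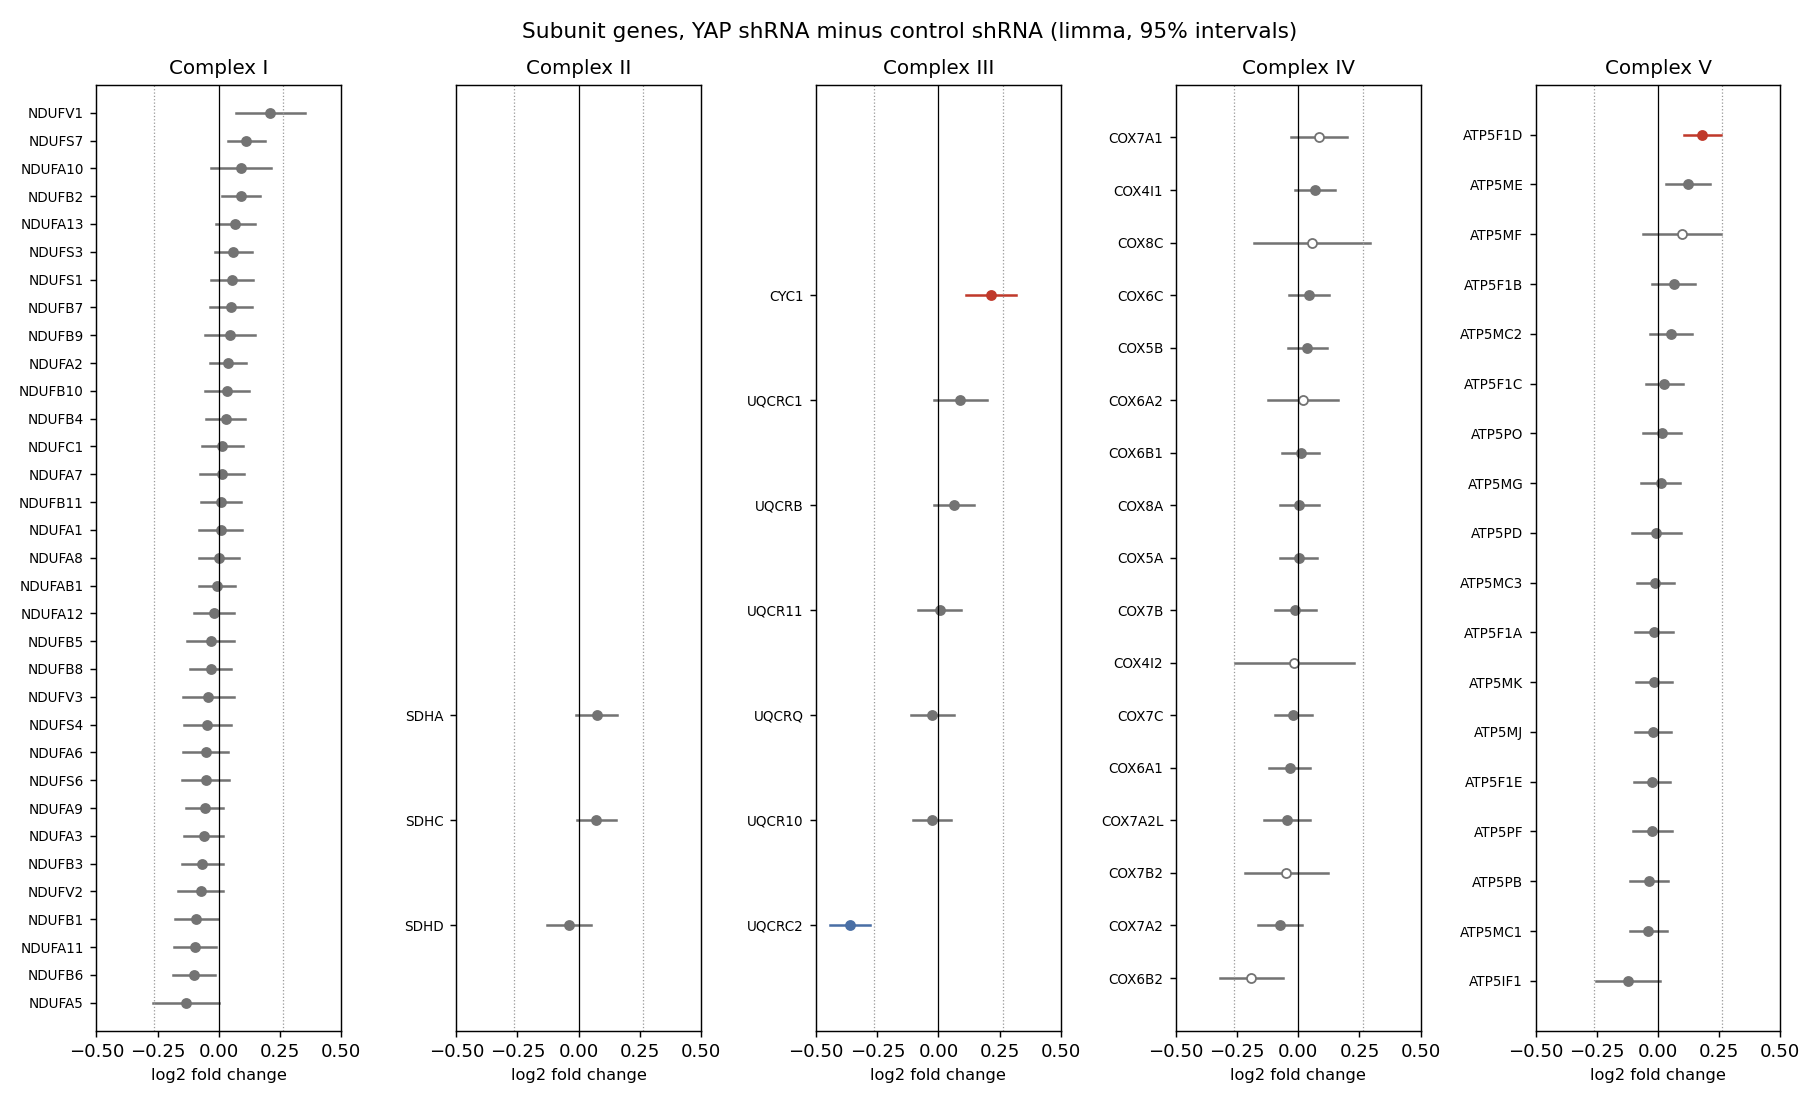
Each row is a subunit gene, with its log2 fold change (YAP shRNA minus control shRNA, dot) and limma 95% interval (line), in a panel for each complex. Blue marks UQCRC2, which fell, red marks CYC1 and ATP5F1D, which rose, grey marks genes that did not pass the test, open dots mark genes at or below the median level, and dotted lines mark a 1.2-fold change. Most intervals lie between the dotted lines.

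The median log2 fold change over the 78 genes was 0.0013, with 40 above 0 and 38 below, beside a median of 0.013 for all genes. Their middle 50% lay between -0.038 and 0.053, beside -0.085 and 0.12 for all genes above the median level and -0.077 and 0.065 for all genes above a log2 level of 11. The plot by complex shows the 95% interval of each gene. For 72 of the 78 genes, or 92.3%, that unadjusted interval lay within a 1.2-fold change either way (0.263 on the log2 scale), beside 48.1% of all genes. Above a level of 11 it was 63 of 67 subunit genes, or 94.0%, beside 78.0% of all genes there. The intervals that reached past it were those of UQCRC2, CYC1, NDUFV1, NDUFA5, COX6B2 and COX8C. The median standard error was 0.037 for subunit genes, against 0.0417 for all genes above a level of 11 and 0.0679 for all genes.

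By complex, the median log2 fold change was 0.0011 for complex I, 0.072 for complex II, 0.0047 for complex III, 0.0016 for complex IV and -0.0088 for complex V. The complex II value rests on 3 genes, and without _x_at, _s_at and _a_at probe sets, which can cross-hybridise, it turned to -0.087 over the 2 genes left. Complex III had 1 rise and 1 fall, complex V had 1 rise, and complexes I, II and IV had no call (limma). An unadjusted limma p under 0.05 was reached by 11 of the 78 genes, or 14.1%, of which 6 were of complex I, 0 of complex II and 1 of complex IV. The background at that limit was 29.3% of all genes, 43.1% of genes above the median level and 36.8% of genes above a level of 11. In the last 2 sets, 10 of 71 and 9 of 67 subunit genes reached it. The arrays of the 2 groups did not overlap for 22 of the 78 genes, or 28.2%, with 12 above and 10 below the control arrays. The background for groups that do not overlap was 24.3% of all genes, 40.2% of genes above the median level and 39.7% of genes above a level of 11. Of the 71 subunit genes above the median level, 12 lay above and 9 below the control arrays. Of the 67 above a level of 11, 11 lay above and 8 below.

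Complex III, which passes electrons from ubiquinol to cytochrome c, held the largest change in each direction among all 78 genes. UQCRC2 encodes core protein 2, a matrix-facing structural subunit of the complex. It stood at 12.28, 12.26, 12.30 and 12.28 with the YAP shRNA, against 12.69, 12.61, 12.63 and 12.63 with the control shRNA. The groups did not overlap, and the gap between them was larger than the whole range within either group. UQCRC2 averaged 12.28 ± 0.016 with the YAP shRNA and 12.64 ± 0.036 with the control shRNA (SD, n = 4 each). It fell 1.28-fold, with a log2 fold change of -0.36 (95% interval -0.44 to -0.28; limma adjusted p = 0.000293; two-sided exact permutation p = 0.0286, the smallest that 4 arrays against 4 allow).

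**Figure D2:**
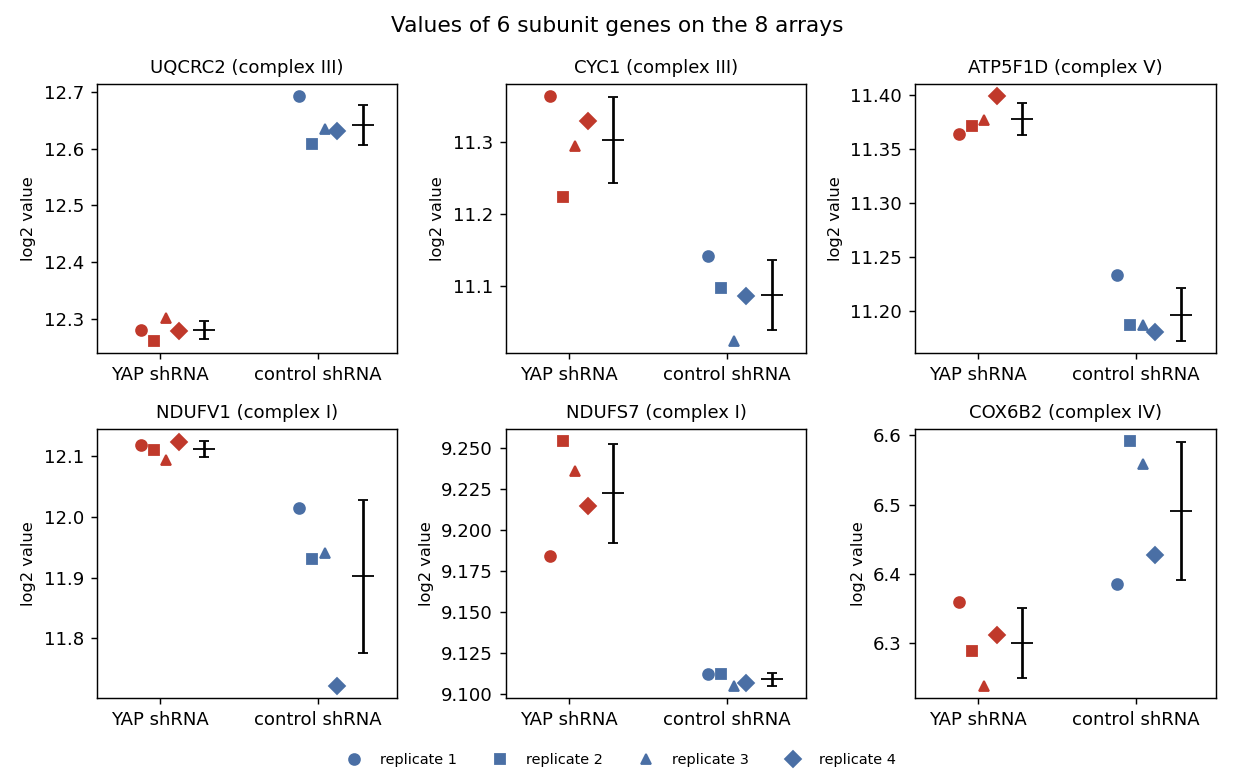
Log2 values of 6 subunit genes on each of the 8 arrays, YAP shRNA left (red) and control shRNA right (blue), with a marker shape for each replicate number and the mean ± SD beside each group. The groups do not overlap in any of the 6 panels, and the y axes differ in range and do not start at 0. NDUFV1, NDUFS7 and COX6B2 did not pass the test over all genes.

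A second bright probe set of UQCRC2 gave a larger difference. When all probe sets with 1 symbol were fitted, the chosen probe set stood at -0.36 and the second at -0.46 (limma adjusted p = 0.000644 and 0.000303). The third probe set, dim at 5.20 with the YAP shRNA and 5.33 with the control shRNA, stood at -0.13 and was not called. UQCRC2 lies on chromosome 16, where the median log2 fold change of genes above the median level was 0.074, on the other side of 0. Of the 10 nearest measured genes along the chromosome, MOSMO fell by 0.47, while the other 9 were not called, and MOSMO itself lay below the median level. Falls were 7.17% of all genes.

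The upstream sequence of UQCRC2 is shown because this gene changed most. RefSeq (GRCh38.p14) gives the 250 bases before its annotated start as chr16:21953111-21953360 on the plus strand, all in lower case because none of the motifs searched occurs in them.
UQCRC2 upstream: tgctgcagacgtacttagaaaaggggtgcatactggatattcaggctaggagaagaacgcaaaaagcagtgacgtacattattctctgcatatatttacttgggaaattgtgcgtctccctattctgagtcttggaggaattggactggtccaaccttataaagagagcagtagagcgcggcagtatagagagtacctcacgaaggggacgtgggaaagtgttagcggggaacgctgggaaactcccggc
The first transcribed bases, chr16:21953361-21953383, hold the YY1 letters on the other strand, in capitals, starting at base 9 of the transcript.
UQCRC2 start: ctccgccaCCATCTTgctttcct

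The letters searched on both strands, in the 250 bases before to 50 after each start, were GCGCATG for NRF1, CCGGAAG for GABPA, AAGATGG for YY1 and GGAATG for the TEAD partners of YAP. None of these letter strings contains another. Of the 78 subunit genes, 66 had a promoter window in RefSeq, and the background was 15843 protein-coding genes. NRF1 letters were found in 14 of 66 subunit genes, or 21.2%, beside 6.82% of all. GABPA letters were found in 19, or 28.8%, beside 16.5%, and YY1 letters in 17, or 25.8%, beside 7.90%. TEAD letters were found in 7, or 10.6%, beside 15.6%. These matches describe the windows and are not binding sites.

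CYC1 encodes cytochrome c1, the heme subunit that hands electrons to cytochrome c. It stood at 11.36, 11.22, 11.29 and 11.33 with the YAP shRNA, against 11.14, 11.10, 11.02 and 11.09 with the control shRNA. Every YAP shRNA array lay above every control array, with replicate 2 the lowest among the YAP shRNA arrays. CYC1 rose 1.16-fold, with a log2 fold change of 0.22 (95% interval 0.11 to 0.32; limma adjusted p = 0.0125; exact permutation p = 0.0286). It is measured by a single probe set and lies on chromosome 8, where the median over the 368 genes above the median level was 0.11 on the log2 scale, the highest of any chromosome measured. Of its 10 nearest measured genes, GRINA, EXOSC4, GPAA1, SHARPIN and MAF1 rose by between 0.21 and 0.26 and 0 fell. That is 5 of 10, beside rises in 9.49% of all genes and 15.2% of genes above the median level. The part of these regional values in the CYC1 result was not tested. The other 3 subunit genes of chromosome 8 had smaller positive values, 0.064 for UQCRB, 0.045 for NDUFB9 and 0.043 for COX6C, and did not pass.

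The remaining complex III genes were not called, with log2 fold changes from -0.026 to 0.090. UQCRC1, which encodes core protein 1, the partner of core protein 2, stood at 10.48, 10.37, 10.44 and 10.46 with the YAP shRNA, against 10.42, 10.28, 10.29 and 10.39 with the control shRNA. The groups overlapped, and its log2 fold change of 0.090 (95% interval -0.019 to 0.20) was not called (limma adjusted p = 0.26). The smaller subunit genes UQCR11, UQCRQ and UQCR10 stood at 0.0047, -0.025 and -0.026. UQCRB stood at 0.064, its other bright probe sets at 0.11 and 0.11 and its dim one at -0.13, with none called.

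Complex V, the ATP synthase, consists of a catalytic F1 head and a proton-conducting Fo part in the membrane. ATP5F1D, the delta subunit of the central stalk of F1, stood at 11.36, 11.37, 11.38 and 11.40 with the YAP shRNA, against 11.23, 11.19, 11.19 and 11.18 with the control shRNA. The groups did not overlap, and both were narrow, with SDs of 0.015 and 0.025. ATP5F1D rose 1.13-fold, with a log2 fold change of 0.18 (95% interval 0.10 to 0.26; limma adjusted p = 0.00705; exact permutation p = 0.0286). Its second bright probe set stood at 0.11 with groups that did not overlap, and was not called in the fit over all probe sets (limma adjusted p = 0.105). Of its 10 nearest measured genes on chromosome 19, SBNO2, STK11 and CBARP rose by 0.39, 0.40 and 0.28 and 0 fell. That is 3 of 10, beside rises in 9.49% of all genes and 15.2% of genes above the median level. The part of these neighbours in the result was not tested.

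The other F1 genes were 0.064 for ATP5F1B, the catalytic beta subunit, 0.026 for ATP5F1C, -0.016 for ATP5F1A and -0.024 for ATP5F1E. ATP5ME, subunit e of the membrane part, stood at 12.75, 12.73, 12.74 and 12.70 with the YAP shRNA, against 12.64, 12.64, 12.62 and 12.53 with the control shRNA. The groups did not overlap, but its log2 fold change of 0.12 missed the threshold (limma adjusted p = 0.0687). ATP5IF1, the inhibitor that binds F1 when the proton gradient collapses, had the lowest value of this complex, -0.12, with groups that overlapped (limma adjusted p = 0.202). The other bright probe sets of ATP5IF1 stood at -0.082 and 0.027, and the average of its probe sets at -0.059. The 3 genes for the identical c subunit of the rotor ring, ATP5MC1, ATP5MC2 and ATP5MC3, stood at -0.039, 0.053 and -0.011. The 4 ATP5P genes, of the peripheral stalk, ranged from -0.038 to 0.017. ATP5MF was measured only on a dim probe set, at 6.99 with the YAP shRNA and 6.89 with the control shRNA.

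Complex I, the NADH dehydrogenase, had no called gene among 33, and its log2 fold changes ran from -0.13 for NDUFA5 to 0.21 for NDUFV1. NDUFV1, the flavoprotein that binds NADH, stood at 12.12, 12.11, 12.10 and 12.12 with the YAP shRNA, against 12.02, 11.93, 11.94 and 11.72 with the control shRNA. The YAP shRNA arrays were tight (SD 0.013), the control arrays were spread (SD 0.13), and control shRNA replicate 4 was the lowest of all. NDUFV1 missed the threshold narrowly (limma adjusted p = 0.0517; 95% interval 0.069 to 0.35). Without control shRNA replicate 4 its log2 fold change was smaller, 0.15, but passed (limma adjusted p = 0.024). Without control shRNA replicate 1 it was 0.25 and passed as well (limma adjusted p = 0.0338).

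Other genes of the NADH-oxidising tip lay on both sides of 0. NDUFS1, the large iron-sulfur subunit, stood at 0.053 with overlapping groups, and NDUFV2, the partner flavoprotein, at -0.074. NDUFV2 lies on chromosome 18, where the median of genes above the median level was -0.095. Of the subunits near the ubiquinone site, NDUFS7 stood at 9.18, 9.25, 9.24 and 9.21 with the YAP shRNA, against 9.11, 9.11, 9.10 and 9.11 with the control shRNA. The control arrays of NDUFS7 were nearly identical, and its log2 fold change of 0.11 missed the threshold (limma adjusted p = 0.0544). A dimmer NDUFS7 probe set stood at -0.024. NDUFS3 stood at 0.060.

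Genes of the membrane arm and accessory subunits lay on both sides of 0. The 13 NDUFA genes ranged from -0.13 to 0.091 and the 11 NDUFB genes from -0.10 to 0.091. NDUFA5, an accessory subunit, stood at 11.41, 11.33, 11.34 and 11.19 with the YAP shRNA, against 11.42, 11.40, 11.43 and 11.56 with the control shRNA. Its groups overlapped, with YAP shRNA replicate 4 the lowest and control shRNA replicate 4 the highest array (limma adjusted p = 0.171). NDUFB6 stood at 11.35, 11.36, 11.43 and 11.32 with the YAP shRNA, against 11.46, 11.49, 11.45 and 11.47 with the control shRNA, with a log2 fold change of -0.10 (limma adjusted p = 0.108). NDUFAB1, the mitochondrial acyl carrier protein, which also serves fatty acid synthesis, stood at -0.0082 (95% interval -0.082 to 0.065).

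Complex II, succinate dehydrogenase, joins the tricarboxylic acid cycle to the respiratory chain. SDHA, its flavoprotein, and SDHC, a membrane anchor, stood at 0.074 and 0.072 (limma adjusted p = 0.233 and 0.221), and SDHD, the other anchor, at -0.038. SDHC stood at 12.85, 12.89, 12.87 and 12.88 with the YAP shRNA, against 12.78, 12.78, 12.80 and 12.85 with the control shRNA, without overlap. The other SDHC probe sets did not all share its direction: 1 of them, at 9.94 with the YAP shRNA and 10.07 with the control shRNA, stood at -0.14.

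Complex IV, cytochrome c oxidase, has subunits with paired isoforms, of which the widely expressed form was bright here and the tissue-restricted form dim. The bright isoforms COX4I1, COX6A1, COX6B1, COX7A2, COX7B and COX8A stood at 0.069, -0.036, 0.011, -0.073, -0.012 and 0.0035, and none was called by limma. The groups did not overlap for COX4I1, where the YAP shRNA arrays were higher, and for COX7A2, where they were lower. COX7A2L, a factor for joining complexes into supercomplexes, stood at -0.044. The forms COX4I2, COX6A2, COX6B2, COX7A1, COX7B2 and COX8C, known mainly from lung, muscle or testis, all lay below the median level in both groups. COX6B2, a testis form, stood at 6.36, 6.29, 6.24 and 6.31 with the YAP shRNA, against 6.39, 6.59, 6.56 and 6.43 with the control shRNA. Its groups did not overlap but were separated by less than their own ranges, and its log2 fold change of -0.19 missed the threshold (limma adjusted p = 0.0523). COX6B2 passed without control shRNA replicate 1 (-0.23, limma adjusted p = 0.0323) and without control shRNA replicate 4 (-0.21, limma adjusted p = 0.0431). The other 5 dim forms ranged from -0.050 to 0.085, with 95% intervals that reached as far as -0.26 and 0.29.

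**Figure D3:**
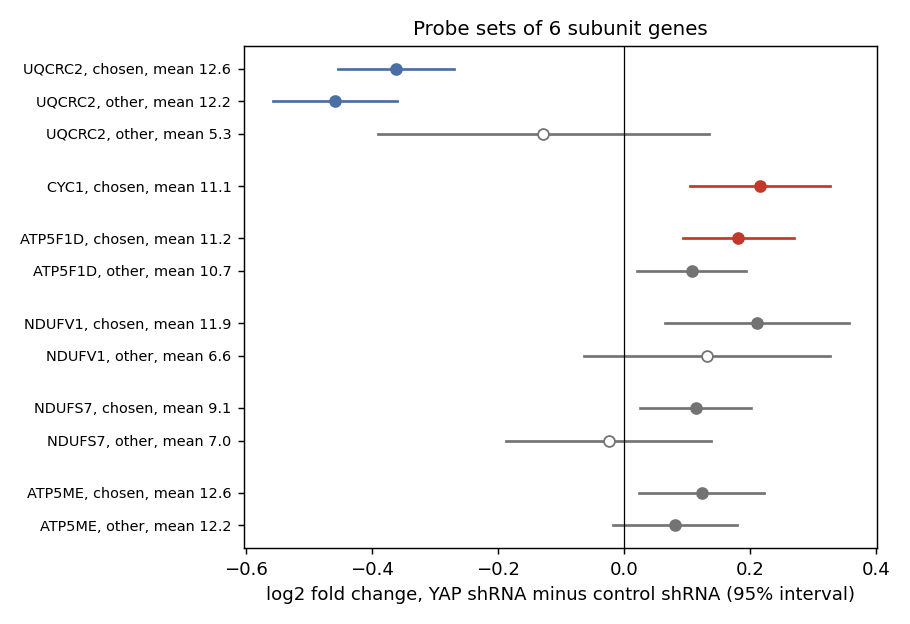
Log2 fold change (YAP shRNA minus control shRNA) and limma 95% interval of every probe set with 1 symbol for 6 subunit genes, labelled with the control mean and whether it was the one chosen for the gene. Blue and red mark probe sets that fell or rose in the fit over all probe sets, grey those not called, and open dots those at or below the median gene level. Both bright UQCRC2 probe sets lie left of 0 with their whole intervals, and the dim one has an interval that crosses 0.

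Other genes also had several probe sets. Of the 78 genes, 27 had more than 1 probe set above the median gene level. In 16 of the 27 all such probe sets had the same sign, and the median range between them was 0.048 on the log2 scale. Of the 152 probe sets with 1 subunit symbol, 4 were called (limma), or 2.63%, beside 13.6% of all 41097 probe sets with 1 symbol. They were both bright ones of UQCRC2 and 1 each of CYC1 and ATP5F1D. COX4I1 had 4 probe sets, all with positive values, 0.069, 0.11, 0.15 and 0.23, and none called alone. With the probe sets of each gene averaged, COX4I1 stood at 0.14 and was called as risen (limma adjusted p = 0.042). The plot of probe sets shows the called ones beside the probe sets of NDUFV1, NDUFS7 and ATP5ME.

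The median over subunit genes was also close to the control mean on every array. Expressed as the deviation from the control mean of each gene, it was 0.015, -0.016, 0.0051 and -0.011 on the YAP shRNA arrays, against -0.0049, -0.0055, -0.0084 and 0.015 on the control arrays. Control shRNA replicate 4 was the highest control array, within the range of the YAP shRNA arrays. For complex II alone it was 0.053, 0.067, 0.050 and 0.076 on the YAP shRNA arrays, against 0.016, -0.022, -0.0027 and 0.048 on the control arrays. These complex II values did not overlap, but they rest on 3 genes, with SDHA and SDHC read from _x_at probe sets.

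Subunits encoded by mitochondrial DNA did not pass the test either. The 7 measured genes, ND2, ND4, ND6, COX1, COX2, COX3 and ATP6, centred on a median of -0.010 (log2 fold change), and 0 rose and 0 fell (limma; 0 also at an unadjusted p under 0.05). ND6 stood at 13.01, 12.99, 13.08 and 13.07 with the YAP shRNA, against 13.10, 13.08, 13.12 and 12.77 with the control shRNA. Control shRNA replicate 4 was the lowest array for ND6, ND4, ND2, COX2 and ATP6, and without it the median was -0.064, still with 0 called.

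**Figure D4:**
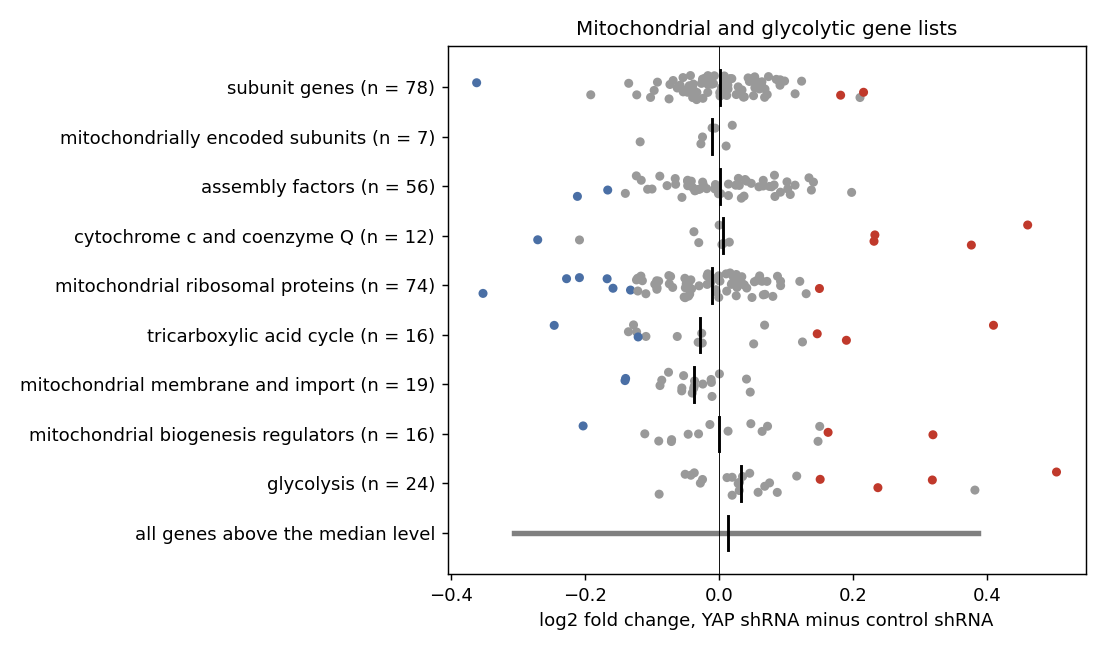
Log2 fold changes (YAP shRNA minus control shRNA) of the genes of each list, a dot per gene and a black bar at the list's median, with red for genes that rose, blue for genes that fell and grey for genes not called. The bottom bar spans the 5th to 95th percentile of all genes above the median level. Subunit genes crowd around 0 but reach -0.36, and the ribosomal protein list reaches -0.35. The coenzyme Q, tricarboxylic acid cycle, regulator and glycolysis lists each reach above 0.3.

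The following lists were read from the same limma fit, and the plot of gene lists sets them beside the subunit genes. Of 56 measured assembly factors, 0 rose and 2 fell, both of complex IV: COX11, which delivers copper to the oxidase, by 0.21, and SCO1, a copper chaperone, by 0.17. That is 3.57%, beside 16.7% of all genes. COX11 lost its call in 5 and SCO1 in 8 of 19 alternative settings, and COX11 stood at -0.070 with probe sets averaged. The median of the list was 0.0008, and without control shRNA replicate 4, 3 rose and 2 fell (8.93%, beside 19.6% of all genes). Of 74 mitochondrial ribosomal protein genes, 1 rose and 6 fell, or 9.46%, beside 16.7% of all genes. Over all genes, 9.49% rose and 7.17% fell. The median of the ribosomal list was -0.010. MRPL18 fell most, by 0.35, and was named after its value was seen.

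Several genes of coenzyme Q synthesis changed. Of 12 genes for cytochrome c and coenzyme Q, 4 rose and 1 fell, or 41.7%, beside 16.7% of all genes and 26.6% of genes above the median level. COQ8A, an atypical kinase needed for coenzyme Q synthesis, rose by 0.46, and COQ9, a lipid-binding partner of COQ7, by 0.38. With probe sets averaged COQ8A stood at 0.24 and was still called. COQ7 and COQ9 lie on chromosome 16, whose median was 0.074. COQ5, a methyltransferase of the pathway, fell by 0.27. The list's median was 0.0054, and the counts were equal without control shRNA replicate 4.

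The shares called were 18.8% for the regulators, 31.2% for the tricarboxylic acid cycle, 10.5% for membrane and import and 16.7% for glycolysis, beside the 16.7% of all genes and 26.6% of genes above the median level. The shares of the regulators and of glycolysis lay near or below that background. Of 16 regulators of mitochondrial biogenesis, TFB1M, a methyltransferase of mitochondrial ribosomal RNA, rose by 0.32 and ESRRA, an orphan nuclear receptor, by 0.16, while GABPA, an ETS factor, fell by 0.20. Without _x_at, _s_at and _a_at probe sets TFB1M stood at -0.080 and was not called. ESRRA lost its call in 12 and GABPA in 8 of 19 alternatives. Of 16 genes of the tricarboxylic acid cycle, 3 rose and 2 fell. IDH2, the mitochondrial NADP-dependent isocitrate dehydrogenase, rose by 0.41 and IDH3G by 0.19, while SUCLA2 fell by 0.25 and PDHX fell by 0.12. IDH2 was called in all 19 alternatives, while PDHX lost its call in 13 of 19, IDH3G in 8 of 18 and SUCLA2 in 6 of 18. Of 19 membrane and import genes, 0 rose and 2 fell, TIMM50 and TOMM22, by 0.14 each. TIMM50 turned to 0.023 and was not called without _x_at, _s_at and _a_at probe sets, and TOMM22 lost its call in 12 of 18 alternatives. Of 24 glycolysis genes, 4 rose and 0 fell, among them PFKFB4, which raises the activator of phosphofructokinase, by 0.50 and PDK1, which inhibits entry of pyruvate into the cycle, by 0.32. Both were called in all 19 alternatives, at 0.23 and 0.18 with probe sets averaged. The median log2 fold change was -0.0001 for the regulators, -0.028 for the cycle, -0.038 for membrane and import and 0.033 for glycolysis. With control shRNA replicate 4 left out, the rises and falls were 2 and 1 for the regulators, 3 and 3 for the cycle, 0 and 1 for membrane and import, and 5 and 0 for glycolysis.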

How the data were processed

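The authors deposited 1 log2 value per probe set and array for 54675 probe sets, per the file headers with no method. The log base was inferred from the range of 1.72 to 14.9. Biotin-labelled cDNA made with a NuGEN amplification kit was hybridised to Affymetrix arrays, per the labels' protocols. Background correction, summarisation and normalization were not given in the sources used here. Array medians lay between 6.22 and 6.25, and values were used as deposited. GEO's platform annotation gave 1 symbol to 41097 probe sets, and each gene was represented by the probe set whose mean over all 8 arrays was highest. Chromosomes and neighbours came from RefSeq (GRCh38.p14) through Entrez IDs.

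Samples were grouped and numbered as labelled. A linear model was fitted with limma 3.58.1 in R 4.3.3, YAP shRNA minus control shRNA, over 19775 genes, with Benjamini-Hochberg adjustment over all of them and calls below 0.05. The script was tested on simulated data. Figures were drawn with matplotlib 3.10.9. Genes named are YAP1, called subunit genes, the 2 highest and 2 lowest per complex, isoform pairs, and up to 2 risen and 2 fallen genes per list; other subunit genes illustrate a role, and genes next to called ones were named after their values were seen. Members and lists were chosen with earlier results of these data known. The alternatives were 2 normalizations, 2 limits on dim genes, 2 rules for probe sets, another spread model, array weights, 2 thresholds, leaving out each array, and the replicate number as a block. The neighbouring genes, the level of 11 and the mitochondrial DNA and ribosomal protein lists were added after the data were seen. The number of arrays limits the precision.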

Additional observations from a re-analysis of the deposited data

Results flagged for a closer look

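In 118 groups of 4 values (53 named genes and 6 medians), 11 had an array that stood far from the remaining 3. Chance alone flags about 1 in 20 groups, here 5.9. Control shRNA replicate 4 was that array in 6 of the 11. Among these 6 are the medians over all subunit genes and over complex I, which share genes and are not separate flags.

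On it, COX7A2 was higher at 12.20 (12.10 to 12.11 on the other control arrays), COX6B1 higher at 13.40 (13.37 to 13.38) and ATP5MC1 lower at 12.86 (12.91 to 12.92). IDH2 was higher there at 8.0004 (7.82 to 7.83). The median deviation from the control mean was 0.0145 over all subunit genes (-0.0084 to -0.0049) and 0.0149 over complex I (-0.0091 to -0.0062) on that array.

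ATP5F1D was higher in control shRNA replicate 1 at 11.23 (11.18 to 11.19). In control shRNA replicate 2, UQCR10 was higher at 12.55 (12.51) and COX6A2 higher at 5.44 (5.31 to 5.33). YAP1 was higher in control shRNA replicate 3 at 12.77 (12.59 to 12.61), and COQ5 higher in YAP shRNA replicate 1 at 10.34 (10.31).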

How the results depend on the processing

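UQCRC2 fell under all 19 alternatives, by 0.32 to 0.46 on the log2 scale (limma adjusted p = 3.9e-07 to 0.00953). CYC1 kept a value of 0.19 to 0.24 and was called in all but a threshold of 0.01 (limma adjusted p = 0.0125). ATP5F1D kept 0.14 to 0.19 and lost its call with the replicate block (limma adjusted p = 0.061); without _x_at, _s_at and _a_at probe sets it had none left. Rises and falls among subunit genes numbered 3 and 2 with quantile normalization (16.7% of all genes called) and 2 and 2 with arrays centred on their medians (16%). They were 3 and 1 with the probe sets of a gene averaged (15.2%), with COX4I1 added. Without the lowest 25% of genes by level they were 5 and 2 (25.9%), and without genes below the median level 6 and 4 (39.3%). They were 6 and 4 with trend and robust moderation (21.8%), and 5 and 2 with array weights (20.5%). They numbered 1 and 1 without _x_at, _s_at and _a_at probe sets (14.4%). With adjusted p below 0.01 they were 1 and 1 (9.03%, or 1785 genes called in all), and with adjusted p below 0.10 they were 5 and 2 (22.8%). Genes near the threshold came and went: NDUFV1 passed in 7 of 19 alternatives and COX6B2 in 7 of 17. ATP5ME passed in 6 of 18 and NDUFS7 in 4 of 19, and for all of these genes the threshold of 0.10 was among them. Leaving out each array gave 2 to 3 rises and 1 to 2 falls, beside 2381 to 3881 genes called (12% to 19.6%). The medians were then -0.0098 to 0.012 over subunit genes and -0.012 to 0.0046 for complex V. The cause of these shifts was not tested. The medians were 0.014 over subunit genes and 0.0050 for complex V with quantile normalization, -0.025 for complex III and 0.0017 for complex V when the probe sets of a gene were averaged, and 0.0008 for complex V with array weights. Without _x_at, _s_at and _a_at probe sets they were -0.087 for complex II, where 2 genes were left, -0.025 for complex III and 0.0029 for complex V. TFB1M and TIMM50 then stood at -0.080 and 0.023 and were not called. Same-numbered arrays did not deviate together (correlations of -0.17, -0.059, 0.0020 and -0.21). The replicate block gave 2106 called genes (10.6%), with CYC1 as the 1 subunit gene that rose and UQCRC2 as the 1 that fell.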
